A study of Drosophila melanogaster with 12 samples.

Results

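Voltage-gated and leak ion channels set how readily a neuron fires. Sodium channels carry the rising phase of the action potential, calcium channels couple firing to transmitter release, and potassium channels repolarise the membrane and hold it at rest. Much of the textbook knowledge of these families began with Drosophila mutants, among them paralytic (para), Shaker (Sh), ether-a-go-go (eag), slowpoke (slo) and cacophony (cac), and the larval motor neurons of the ventral nerve cord, the insect counterpart of the spinal cord, are a standard preparation for recording their currents.

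A list of 34 genes that encode the pore-forming and auxiliary subunits of these channels was followed through poly(A) RNA-seq of that tissue. All 34 were found by gene symbol among the 14251 genes present in either deposited gene table. The 12 libraries came from wandering third-instar Drosophila melanogaster larvae reared at 25C and fell into 3 groups of 4. The larvae called WT were kdm5 140 mutants to which the transgene gKDM5 restored the gene, and so were not an unmanipulated strain. L854F larvae were homozygous for kdm5 L854F, and JmjC larvae were homozygous for kdm5 JmjC*, which the series title calls enzymatically inactive. KDM5 is a chromatin protein that removes methyl groups from lysine 4 of histone H3 through its JmjC domain. The labels give neither the sex of the larvae, nor the number pooled in a library, nor whether the 4 libraries of a group came from separate crosses, so the p-values measure the spread between these libraries, which may be technical.

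Library totals ranged from 15103631 to 16850705 expected counts. Levels are given as CPM (counts scaled to the library size, here with TMM factors), and levels of different genes are compared only per kilobase of the authors' deposited gene length. The kdm5 transcript stood at 716 ± 33.9 CPM in WT, 774 ± 30.5 CPM in L854F and 773 ± 37.9 CPM in JmjC (SD, n = 4), and since the alleles carry point changes these levels do not check the labels. All 10 neuron markers examined (such as nSyb and Syx1A, which build the synaptic vesicle release machinery) were detected in every group, with a summed level of 4363 to 5013 CPM in WT, 4395 to 5048 CPM in L854F and 4420 to 5409 CPM in JmjC. In whole tissue, fewer cells of a type and less RNA per cell cannot be told apart.

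Of the 34 genes, 33 had enough counts to be tested in each comparison. The exception was sand, a two-pore potassium channel known in flies for its part in sleep control. It had 0 counts in all 4 WT libraries and at most 1 count in any mutant library, so its level was at or under the floor of 3 counts throughout and no fold is given.

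Levels in WT spanned a wide range. Per kilobase, qvr (quiver, also known as sleepless), a small membrane-anchored protein that promotes Shaker function, was the highest at 83.3 ± 4.10 CPM per kilobase (SD, n = 4). Task6, a two-pore potassium channel of the kind that passes a steady leak current, followed at 67.4 ± 2.51 CPM per kilobase. The calcium channel subunit stj, the α2δ subunit straightjacket, stood at 42.3 ± 2.38 CPM per kilobase. The WT values of qvr, Task6 and stj did not overlap one another.

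Below them the order was largely unresolved. From stj down to para, 20 genes followed each other in steps in which the WT ranges of every pair of neighbours overlapped. In this stretch were the hyperpolarisation-activated channel Ih at 37.6 CPM per kilobase, the presynaptic calcium channel cac at 37.3, and the fast potassium channel Sh at 35.3. At its lower end lay the calcium-activated potassium channel slo at 17.5 and the main voltage-gated sodium channel para at 16.6 CPM per kilobase.

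A gap separated para from the next gene, Elk (a relative of eag), at 13.5 CPM per kilobase. The lower genes were Shawl, Ca-alpha1T, Irk2, tipE, Slob, eag, Irk3, KCNQ and Irk1, the last at 3.36 ± 0.388 CPM per kilobase. The two-pore channel Ork1, with 0.311 ± 0.0846 CPM per kilobase, lay far below. The coefficient of variation over the 4 WT libraries ran from 3.29% for sei, the fly ERG-type channel, to 27.2% for Ork1.

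**Figure D1:**
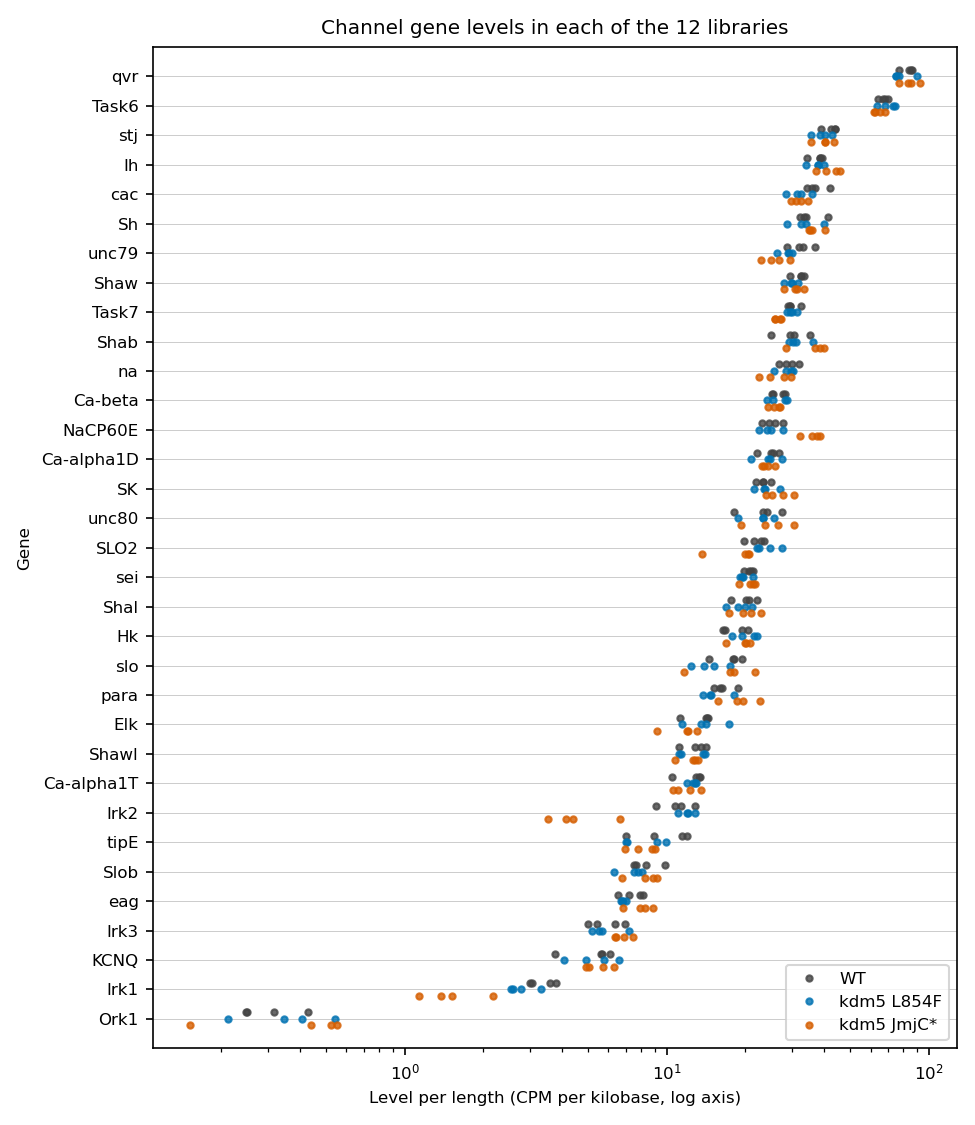
The horizontal axis gives the level of each channel gene in CPM per kilobase on a log axis, with 1 point per library (grey WT, blue L854F, orange JmjC), and genes are ordered by their WT mean. The plot holds 33 genes because sand was at 0 in WT. The orange points of NaCP60E lie to the right of the other groups, and those of Irk1 and Irk2 lie to the left.

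The 33 tested genes shared features of structure that their selection did not use. On the Ensembl annotation of build BDGP6.54, their median span was 24710 bases, against 3119 bases for the 9109 tested genes with a position. Introns made up a median of 66.0% of the span, against 19.7%. The median number of annotated transcripts was 5 against 2, and para alone had 60. Of the 33, 9 lay on the X chromosome (27.3%), against 16.9% of the tested genes. The counts are per gene, so a switch between splice forms with no change in the total would not be seen.

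Libraries numbered 3 stood apart for these genes in all 3 groups. In WT, replicate 3 held the lowest value of its group for 23 of the 33 genes (69.7%), against 25.3% of the 9354 genes tested over all 12 libraries. In L854F it held the lowest value for 22 (66.7%, against 26.0%), and in JmjC for 23 (69.7%, against 29.9%). The summed level of the 33 genes was 5390 CPM in WT replicate 3 and 5954 to 6216 CPM in the other WT libraries. In L854F it was 5223 CPM in replicate 3 and 5581 to 6232 CPM in the others, and in JmjC 5392 CPM against 6048 to 6313 CPM.

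The same 16 genes (48.5%) were lowest in replicate 3 of every group, against 5.21% of all tested genes. They included para, NaCP60E, unc79, unc80, slo, Shab, Shal, Shaw, Ih and the calcium channel subunits Ca-alpha1D, Ca-beta and stj. No channel gene was lowest in the same other number in all 3 groups. The summed neuron markers were also lowest in replicate 3 of each group, at 4363, 4395 and 4420 CPM, while the summed glial markers were not. The labels do not say what a replicate number stands for, and the part of the neuron marker level in these values was not tested.

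**Figure D2:**
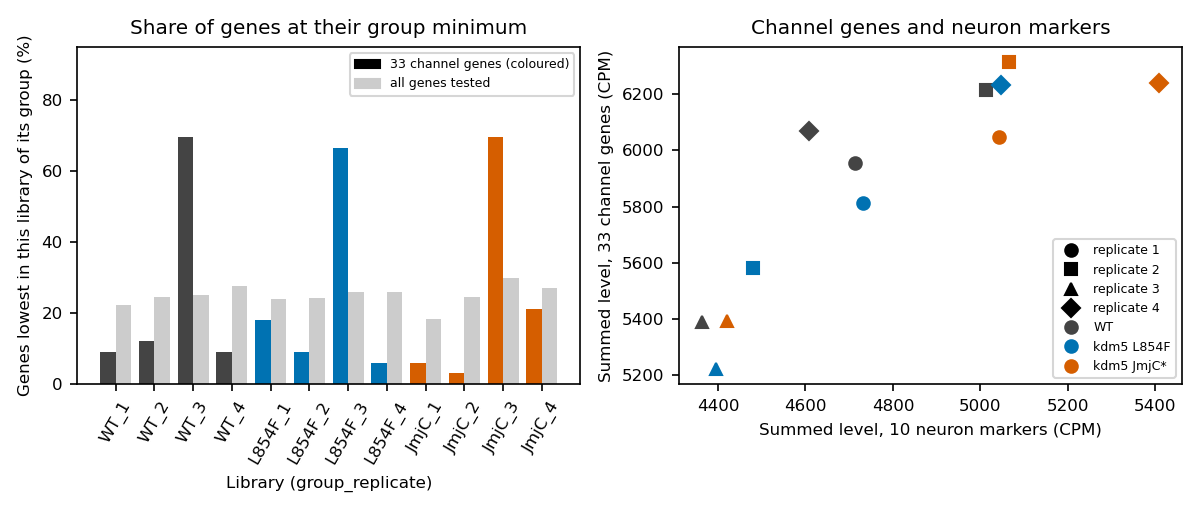
Left, for each library, the percentage of genes whose lowest value within their group fell in that library, for the 33 channel genes (coloured) and all tested genes (light grey). Right, the summed level of the 33 channel genes against that of 10 neuron markers, both in CPM, with 1 point per library. The 3 libraries numbered 3 (triangles) have the tallest coloured bars, between 66.7% and 69.7%, and the 3 lowest channel sums.

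The first question was whether the L854F substitution altered the channel genes. None of the 33 was called at an adjusted p under 0.05 by edgeR's quasi-likelihood test, where 5.54% of all 9105 tested genes were. DESeq2 also called 0, and 3 genes (cac, unc79 and slo) had an unadjusted edgeR p under 0.05. No channel gene had L854F values that all lay outside the WT range, which 12.7% of all tested genes had. The median log2 change of the 33 was -0.03, against 0.00 for all genes, with 10 above 0 and 23 below.

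The intervals bound what could have been missed. The 95% interval of the log2 change lay within ±0.5 for 30 of the 33 genes and within ±1 for all 33. The changes ran from -0.26 for Irk1 to 0.27 for Ork1, the gene with the lowest count.

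The smallest adjusted p in L854F belonged to cac, the Cav2-type calcium channel that triggers transmitter release at fly synapses (FBgn0263111, X:11931280-11985087, minus strand). Its levels in WT replicates 1 to 4 were 440.0, 502, 426 and 409 CPM. In L854F they were 388, 374, 341 and 426 CPM, and in JmjC 371, 387, 357 and 414 CPM. The L854F and JmjC values lay mostly below those of WT, but both mutant groups reached into the WT range through 1 library or more. The log2 change of cac was -0.22 with an SE of 0.08 in L854F (edgeR adjusted p = 0.157). In JmjC it was -0.22 with an SE of 0.07 (edgeR adjusted p = 0.0598), where DESeq2 gave an adjusted p of 0.0242 and the authors' deposited table gives 0.0306. Both comparisons use the same WT libraries.

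The other calcium channel genes moved little in either mutant. These were Ca-alpha1D (the L-type pore), Ca-alpha1T (the T-type pore), Ca-beta and stj, with log2 changes between -0.11 and 0.01 in L854F and between -0.08 and -0.04 in JmjC. The ratio of Ca-beta to cac per length was 0.670 to 0.752 in WT, 0.803 to 0.871 in L854F and 0.742 to 0.866 in JmjC, so the L854F values all lay above WT while the JmjC values overlapped WT. This ratio was chosen after earlier results of these data were known and, like the other ratios given below, carries no test.

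In JmjC, 5 of the 33 channel genes were called (15.2%), against 17.3% of all 9244 tested genes, so the share was near the background. One of these, NaCP60E, was higher (3.03%, against 9.66% of all genes), and 4, namely Irk1, Irk2, unc79 and Task7, were lower (12.1%, against 7.67%). JmjC values lay wholly outside the WT range for 4 of the 33 (12.1%, against 22.7% of all genes), which were NaCP60E, Irk1, Irk2 and Task7. The median log2 change was -0.02 against 0.00 for all genes. DESeq2 called 6, adding cac, and 16.9% of all genes. Without JmjC replicate 3, 8 were called (18.2% of all genes), with Ih, SK, Shab and para gained and unc79 lost. Without JmjC replicate 1, 3 were called (12.3% of all genes), with Task7 and unc79 lost. Leaving out replicate 3 of both groups gave 6 (with 1391 of all 9279 genes called), with Elk and Shab gained and Task7 lost.

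**Figure D3:**
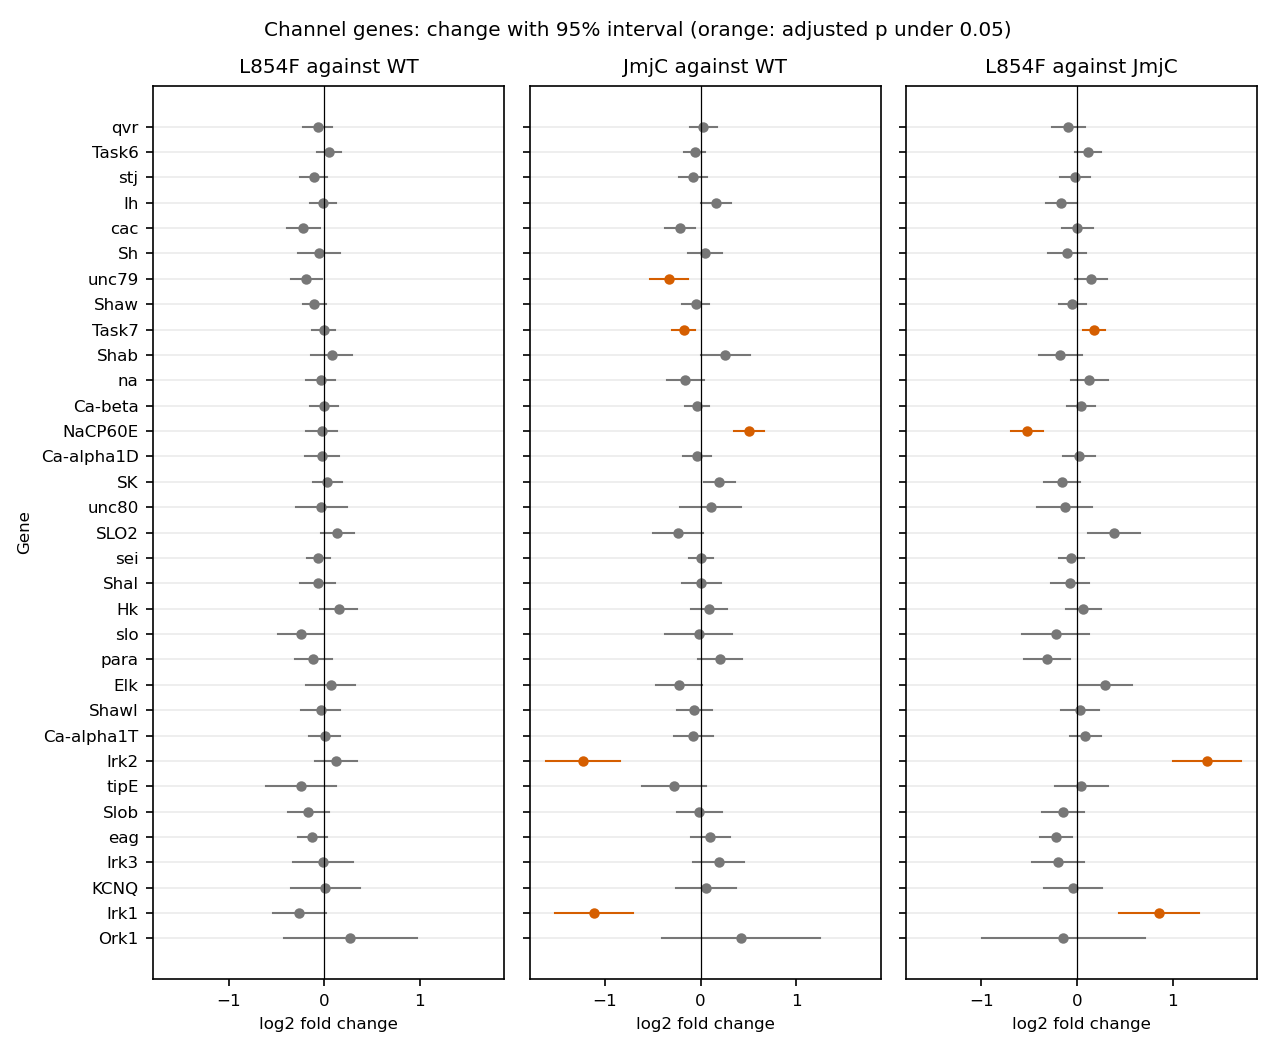
Each panel gives 1 comparison, with the log2 fold change on the horizontal axis, 1 gene per line, points for the estimate and lines for its 95% interval. Orange marks an edgeR adjusted p under 0.05. No gene is orange in L854F against WT, 5 are in JmjC against WT (NaCP60E to the right, Irk1, Irk2, unc79 and Task7 to the left), and 4 are in L854F against JmjC.

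NaCP60E encodes a voltage-gated cation channel related in sequence to the sodium channels, also known as DSC1 (FBgn0085434, 2R:24891614-24921677, plus strand). WT replicates 1 to 4 held 328, 349, 311 and 374 CPM of it, and the L854F replicates 324, 337, 302 and 374 CPM. The JmjC replicates reached 479, 517, 434 and 502 CPM. Every JmjC value lay above every value of the other 2 groups, and the WT and L854F ranges nearly coincided. NaCP60E rose 1.42-fold in JmjC, a log2 change of 0.50 with an SE of 0.07 and a 95% interval of 0.35 to 0.66 (edgeR adjusted p = 0.000692). In L854F its change was -0.03 (edgeR adjusted p = 0.898). On the annotation the gene shares 173 exon bases with pain on the opposite strand, whose own change in JmjC was -0.00 (edgeR adjusted p = 0.981). Tpc2, which lies inside its span without shared exon bases, rose by 1.2 on the log2 scale (edgeR adjusted p = 0.00749).

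The gene that carries the classical sodium current was not called in either mutant against WT in the main fit. The para levels were 258, 298, 241 and 254 CPM in WT, 235, 232, 218 and 286 CPM in L854F, and 293, 310.2, 248 and 359 CPM in JmjC. The 3 ranges overlapped, and para did not pass the test in JmjC (log2 change 0.20, edgeR adjusted p = 0.206) or in L854F (-0.11, edgeR adjusted p = 0.560). The ratio of para to NaCP60E per length was 0.574 to 0.722 in WT, 0.583 to 0.647 in L854F and 0.484 to 0.605 in JmjC. The auxiliary subunit tipE, which promotes para currents, ranged from 25.2 to 42.9 CPM in WT and from 24.8 to 32.3 CPM in JmjC. This log2 change of -0.28 did not pass the test (edgeR adjusted p = 0.249). Without WT replicate 1 tipE was called, as were 14.1% of all genes. Its value is uncertain because tipE shares 777 exon bases on the same strand with CG18675, which was at a mean of 56.8 CPM in WT.

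The inward rectifier potassium channels, which pass potassium more easily into the cell than out, held the largest changes among the channel genes tested. Irk2 (FBgn0039081, 3R:23513617-23519445, minus strand) stood at 20.3, 17.3, 24.3 and 21.4 CPM in WT against 20.9, 22.9, 22.7 and 24.3 CPM in the L854F libraries. JmjC libraries held 8.32, 7.84, 12.6 and 6.70 CPM, below every other library. Irk2 fell to 0.426 of the WT level in JmjC, a log2 change of -1.23 with an SE of 0.18 and an interval of -1.62 to -0.84 (edgeR adjusted p = 0.000725).

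Irk1 (FBgn0265042, 3R:23168317-23185642, plus strand) lies on the same chromosome arm, with 327974 bases between the genes. Its levels were 9.41, 9.19, 11.6 and 10.98 CPM in WT, 8.51, 10.1, 7.96 and 7.80 CPM in L854F, and 4.65, 4.23, 6.65 and 3.47 CPM in JmjC. The JmjC values lay below all others, and the L854F values overlapped those of WT. Irk1 fell by 1.11 on the log2 scale in JmjC, with an SE of 0.18 and an interval of -1.52 to -0.71 (edgeR adjusted p = 0.00181). In L854F the change was -0.26 (edgeR adjusted p = 0.300). The value is uncertain because Irk1 shares 3202 exon bases on the same strand with CG46310, whose own counts fell by 1.08 in JmjC (edgeR adjusted p = 0.00727).

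The third inward rectifier did not fall with them. Irk3 (FBgn0032706, 2L:18711071-18713748, minus strand) was at 7.74, 8.44, 10.8 and 9.83 CPM in WT, 8.02, 8.76, 11.1 and 8.59 CPM in L854F, and 10.6, 9.95, 9.89 and 11.5 CPM in JmjC. The groups overlapped, and its change in JmjC was 0.19 with an interval of -0.07 to 0.46 (edgeR adjusted p = 0.312). Per length, Irk3 was at 0.466 to 0.595 of Irk2 in WT and 0.432 to 0.600 in L854F, and at 0.960 to 2.10 in JmjC. The ratio of Irk2 to Irk1 was 3.05 to 3.49 in WT, 2.89 to 3.12 in JmjC and 3.65 to 5.03 in L854F. The JmjC library with the highest Irk1 and Irk2 was replicate 3, and without it both calls remained.

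**Figure D4:**
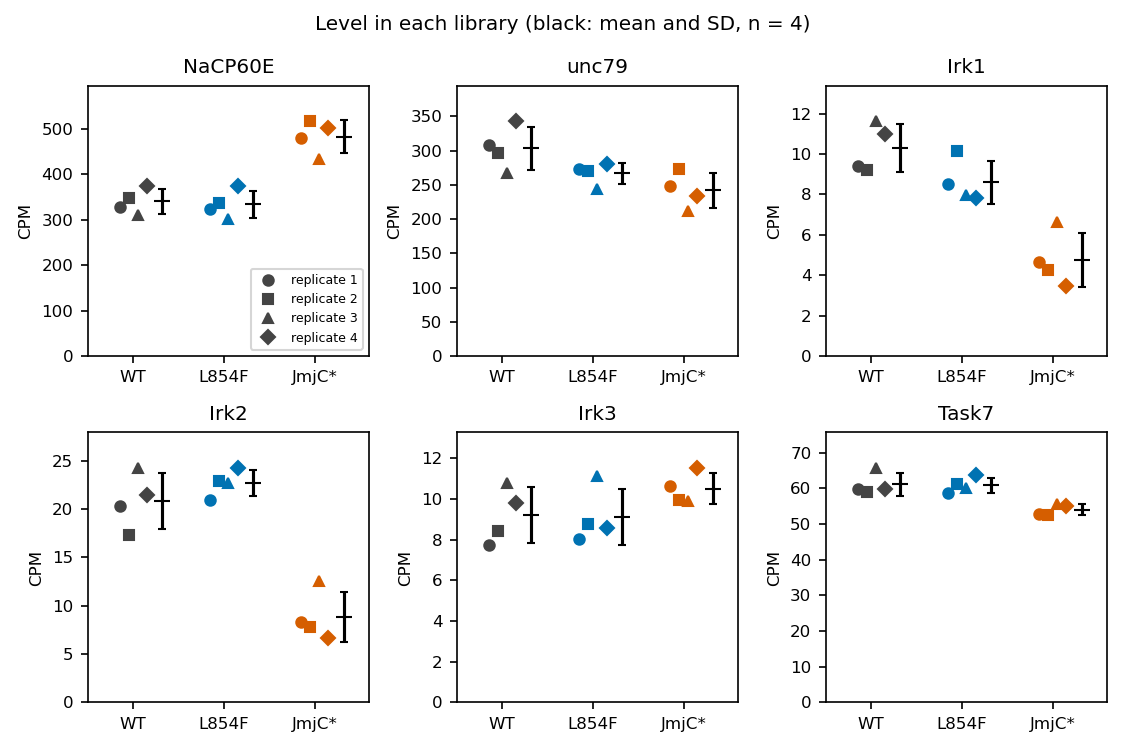
Level in CPM in every library (symbols mark the replicate number) with the group mean and SD in black, n = 4, for the 5 genes called in JmjC and for Irk3; each vertical axis starts at 0. NaCP60E is higher in all JmjC libraries, from 434 CPM upwards, Irk1 and Irk2 are lower in all of them, Irk3 overlaps between the groups, and Task7 and unc79 show small differences.

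The sodium leak channel complex consists of the pore na (narrow abdomen) and the large auxiliary proteins unc79 and unc80, which flies need for the leak current of clock neurons. The level of unc79 (FBgn0038693, 3R:19230764-19246130, minus strand) was 308, 297, 267 and 343 CPM in WT, 273, 270.3, 245 and 280.3 CPM in L854F, and 249, 274, 212 and 233 CPM in JmjC. The JmjC values were mostly lower than those of WT, with an overlap between JmjC replicate 2 and WT replicate 3. It fell by 0.33 in JmjC, with an SE of 0.09 and an interval of -0.52 to -0.13 (edgeR adjusted p = 0.0275). This call was lost in 6 of 17 alternatives, each of which left out a single library (WT replicate 1, 2 or 4, or JmjC replicate 1, 3 or 4), with adjusted p-values of up to 0.0666. On the annotation unc79 shares 69 exon bases with Polr2M on the opposite strand, whose change in JmjC was -0.32 (edgeR adjusted p = 0.0369), and whether the counting used strand is not stated.

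Its partners did not pass the test. The log2 change in JmjC was -0.16 for na (edgeR adjusted p = 0.240) and 0.11 for unc80 (edgeR adjusted p = 0.653). The ratio of unc79 to unc80 per length was 1.34 to 1.59 in WT, 1.13 to 1.40 in L854F and 0.966 to 1.19 in JmjC, so the JmjC values lay below all WT values. This ratio contains the fall of unc79 itself, carries no test and adds no separate evidence. The difference in unc79 between WT and L854F was -0.19 (edgeR adjusted p = 0.199).

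Two-pore potassium channels carry a background leak at rest. Task7 (FBgn0037690, 3R:9410329-9412293, minus strand) was at 59.9, 58.9, 65.8 and 59.8 CPM in WT, 58.6, 61.1, 60 and 63.7 CPM in L854F, and 52.7, 52.5, 55.6 and 55.1 CPM in JmjC. All JmjC values lay below all others, with a small distance. Task7 fell by 0.18 in JmjC, with an SE of 0.05 and an interval of -0.29 to -0.06 (edgeR adjusted p = 0.0387). That call was lost in 8 of 17 alternatives, with adjusted p-values of up to 0.107. These were scaling by library totals, leaving out WT replicate 1, 3 or 4 or JmjC replicate 1, 2 or 4, and leaving out replicate 3 of both groups. Task6 was at 263 ± 9.80 CPM in WT, 272 ± 19.2 CPM in L854F and 252 ± 11.2 CPM in JmjC, and its change in JmjC of -0.06 did not pass the test (edgeR adjusted p = 0.415). Reads of Task6 and Task7, and of the Irk genes, could be split between paralogs by the counting.

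Next came the voltage-gated potassium channels Sh, Shab, Shal, Shaw and Shawl, with the auxiliary proteins Hk and qvr. Of the 7 genes of this group, 0 were called in the main fit of L854F against WT, JmjC against WT or L854F against JmjC. In those fits 5.54%, 17.3% and 16.0% of all genes were called. Sh was at 564 ± 64.2 CPM in WT, 543 ± 72.7 CPM in L854F and 584 ± 40.4 CPM in JmjC. Its change in JmjC was 0.05 with an interval of -0.13 to 0.23 (edgeR adjusted p = 0.705). Hk, the β subunit of Shaker, and qvr changed by 0.09 and 0.03 in JmjC. Shab, a delayed rectifier, had the largest estimate of the group. It was at 339, 350.4, 285 and 401 CPM in WT and at 422, 457, 326 and 439 CPM in JmjC, with replicate 3 lowest in both. The change of 0.26 did not pass the test (edgeR adjusted p = 0.162). With the replicate block Shab was called in JmjC (edgeR adjusted p = 0.0172), as were 17.8% of all genes. It was also called there without JmjC replicate 3 and with no block, as were 18.2% of all genes.

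Nor were the eag, KCNQ and HCN relatives called in either mutant against WT, with or without the block. In JmjC the changes of eag, sei, Elk, KCNQ and Ih ran from -0.22 for Elk to 0.16 for Ih. sei overlaps 2 genes on the opposite strand on the annotation, and one of them, ppk29, rose by 2.33 in JmjC (edgeR adjusted p = 4.04e-07), while sei itself was at 57.5 ± 1.89 CPM in WT and 57.6 ± 3.41 CPM in JmjC.

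Of the potassium channels gated by calcium or sodium, and the slo-binding protein Slob, 0 of 4 were called in the main fit of either mutant against WT. There 5.54% of all genes were called in L854F and 17.3% in JmjC. SK was called in JmjC without JmjC replicate 3, as were 18.2% of all genes. The slo levels were 141, 142, 114 and 153 CPM in WT, 109, 119, 97.9 and 137 CPM in L854F, and 137, 143, 91.3 and 171 CPM in JmjC. In each group replicate 3 was the lowest, and the groups overlapped. The log2 change of slo in L854F was -0.25 with an SE of 0.11 (edgeR adjusted p = 0.237). With the replicate block slo was called in L854F (edgeR adjusted p = 0.0313), as were 5.65% of all genes.

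L854F was then compared directly with JmjC. Of the 33 channel genes, 4 were called (12.1%), against 16.0% of all 9207 tested genes. Irk1, Irk2 and Task7 were higher in L854F (9.09%, against 7.20%) and NaCP60E was lower (3.03%, against 8.80%). Values of the 2 groups did not overlap for 5 of the 33 (15.2%, against 20.9% of all genes), which were these 4 and SLO2. The median log2 difference was -0.04. These counts come from the fit without a replicate block. Deviations of same-numbered libraries of these 2 groups correlated weakly, at 0.103 to 0.172. Different numbers reached 0.149 for L854F replicate 3 with JmjC replicate 4, and otherwise at most 0.0886. With the replicate number as a block edgeR called 9 of the 33 (27.3%), against 22.1% of all genes. The added ones were Ih, SK, SLO2, eag and para. Without JmjC replicate 3 the count was also 9 (18.6% of all genes), with Ih, Shab, eag, para and slo added. Without replicate 3 of either group it was 7 (17.2% of all genes), with Elk, eag and para added.

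Irk2 was 2.57-fold higher in L854F than in JmjC, a log2 difference of 1.36 with an SE of 0.16 and an interval of 1.01 to 1.71 (edgeR adjusted p = 0.000247). Irk1 was 1.82-fold higher, with a log2 difference of 0.86 and an SE of 0.19 (edgeR adjusted p = 0.0111). NaCP60E was lower by a log2 difference of -0.53 with an SE of 0.08 (edgeR adjusted p = 0.000943). Task7 was higher by 0.18 with an SE of 0.05 (edgeR adjusted p = 0.0357), a call lost in 8 of 17 alternatives (library totals, and without any L854F replicate or JmjC replicate 1, 2 or 4). For unc79 the difference between the mutants was 0.15 and did not pass the test (edgeR adjusted p = 0.226), so its call in JmjC and not in L854F is not shown to be a difference between the alleles.

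DESeq2 called 6, the main 4 with SLO2 and para, and 16.8% of all genes. Among the genes that the block added, para had a log2 difference of -0.31 with an SE of 0.11 (edgeR adjusted p = 0.0758, and 0.00327 with the block). SLO2, a relative of the sodium-activated potassium channels of mammals (FBgn0261698, 2R:10322195-10416996, minus strand), was at 199, 163, 160.0 and 179 CPM in L854F, and 149, 148, 144 and 98.5 CPM in JmjC. All L854F values lay above all JmjC values, with JmjC replicate 4 far below the rest. Its log2 difference was 0.38 with an SE of 0.12 (edgeR adjusted p = 0.0575, and 0.0338 with the block). The gene eag, a voltage-gated potassium channel, was at 64.0 to 67.1 CPM in L854F, and 64.9 to 84.9 CPM in JmjC, with a log2 difference of -0.22 (edgeR adjusted p = 0.0698, and 0.0428 with the block). Ih and SK each had a difference of -0.16, with adjusted p-values of 0.0275 and 0.0471 with the block.

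Other channel genes gave a comparison list of 43, of which 41 were matched. In L854F against WT, 5 of the 35 tested were called (14.3%, against 5.54% of all genes), 2 higher and 3 lower. The 3 with the smallest adjusted p were subdued, a calcium-activated chloride channel, which rose by 0.94 (edgeR adjusted p = 2.24e-05), CG42340, which fell by 0.75 (edgeR adjusted p = 0.000119), and Teh4, a tipE homologue, which fell by 0.43 (edgeR adjusted p = 0.00152). In JmjC against WT, 5 of 36 were called (13.9%, against 17.3%), 2 higher and 3 lower. There subdued rose by 0.81 (edgeR adjusted p = 3.48e-05), the mechanosensitive channel Piezo fell by 0.31 (edgeR adjusted p = 0.0166), and the tipE homologue Teh1 rose by 0.26 (edgeR adjusted p = 0.0198). Between the mutants 10 of 35 were called (28.6%, against 16.0%), 5 higher and 5 lower in L854F. CG42340 was lower by a log2 difference of -0.67 (edgeR adjusted p = 5.02e-05), and ClC-c, of the ClC family of chloride channels and transporters, was higher by 0.38 (edgeR adjusted p = 0.00192). The gene iav was lower by -2.10 (edgeR adjusted p = 0.0113). That difference rests on low levels, with means of 0.405 CPM in L854F and 1.77 CPM in JmjC.

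Pumps and exchangers restore the gradients that channels run down. Of 11 such genes, 0 were called in L854F and 3 in JmjC, where 5.54% and 17.3% of all genes were called. The cation-chloride cotransporters NKCC and Ncc69 fell by 0.48 (edgeR adjusted p = 0.00202) and 0.36 (edgeR adjusted p = 0.000987), and the sodium-calcium exchanger Calx rose by 0.32 (edgeR adjusted p = 0.0360). Between the mutants, where 16.0% of all genes were called, 1 was called, NKCC, which was higher in L854F by 0.46 (edgeR adjusted p = 0.00825). Of 10 genes listed as regulators of channel transcripts, 0 were called in L854F and 2 rose in JmjC (against 9.66% of all genes called higher there), namely pum (pumilio, a translational repressor known to act on para mRNA) by 0.27 (edgeR adjusted p = 0.00334) and ps (pasilla, a splicing factor known to act on para transcripts) by 0.48 (edgeR adjusted p = 0.0227). Both were lower in L854F than in JmjC, by -0.19 (edgeR adjusted p = 0.0318) and -0.47 (edgeR adjusted p = 0.0428).

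Markers of other cell types also differed in JmjC, and some in L854F. In L854F 1 muscle marker (Mlc2), 1 neuroblast marker (mira) and 1 imaginal disc marker were called lower, where 2.49% of all genes were. The summed level of 9 glial markers was 1520 to 1727 CPM in WT, 1403 to 1646 CPM in L854F and 1894 to 2171 CPM in JmjC, with 1 marker called higher (alrm, by 1.65) and 2 called lower (Indy and moody) in JmjC. Without alrm, which went from a mean of 229 CPM in WT to 716 CPM in JmjC, the other 8 summed to 1324 to 1469 CPM in WT and 1215 to 1395 CPM in JmjC, and the median log2 change of the 9 was -0.10. The sum of 10 muscle markers was 87.1 to 142 CPM in WT, 56.9 to 92.3 CPM in L854F and 59.8 to 72.1 CPM in JmjC, with 4 called lower in JmjC. The 6 fat body markers summed to 986 to 1198 CPM, 784 to 1185 CPM and 1264 to 1529 CPM in the same order, with 1 called higher in JmjC. That marker, apolpp, made up most of the sum, and the other 5 had log2 changes below 0 in JmjC, none of them called. The 7 neuroblast markers summed to 282 to 299 CPM, 253 to 270.1 CPM and 230 to 266 CPM, with 1 called higher and 1 lower in JmjC. Within this sum, mira had a mean of 141.5 CPM in WT, 116.8 CPM in L854F and 97.3 CPM in JmjC. The median log2 change of the 7 was 0.01 in L854F and 0.05 in JmjC, so the lower sums did not reflect a shared fall. Both mutants lay wholly below WT in the summed neuroblast level. So did they for the 5 tracheal markers, at 186.5 to 194.2 CPM, 160.4 to 183.2 CPM and 167.0 to 181.5 CPM, with 0 called. The sums of 5 hemocyte and 5 imaginal disc markers overlapped WT in both mutants, with 1 of each list called lower in JmjC. Of the 10 neuron markers 3 were called higher in JmjC and 0 lower. Over all genes 9.66% were called higher and 7.67% lower in that comparison. No marker was at 0 throughout any group, and the part of these markers in the changes of NaCP60E, Irk1, Irk2, unc79 and Task7 was not tested.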

How the data were processed

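The authors deposited RSEM expected counts per gene, already whole numbers, in 1 table per mutant with the same 4 WT libraries. Bowtie2 2.2.5, RSEM 1.2.12, DESeq2 and build dm6 are named in the submitters' processing notes. Libraries were made with a stranded kit per the labels, and the counting strand, annotation and definition of the deposited gene length are not given in the sources used here. The authors' deposited comparison tables hold a log2 fold change and an adjusted p-value, and a mean expression signal in the deposited tables was not used.

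Each comparison was fitted to its own 8 libraries with the quasi-likelihood F-test of edgeR 4.0.16 (R 4.3.3) after filterByExpr (minimum count 10, minimum total 15) and TMM scaling, and p-values were adjusted over all tested genes with the Benjamini-Hochberg method. Genes were called under 0.05. L854F against JmjC used the 13416 genes in both tables. CPM uses TMM sizes over all 12 libraries. The biological coefficient of variation fitted by edgeR ranged from 9.57% to 9.73%. Counting intervals are not given, since the spread between replicates was modelled. The floor of 3 counts covers counting error only. Fits were also run on counts simulated from the mean levels and fitted dispersions of these data, with no deviation shared by replicate number. Such a run does not test the calls reported here.

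Alternatives were DESeq2 1.42.0, other scalings and filters, robust dispersion, all 12 libraries, a replicate block, and leaving out libraries. Deviations of same-numbered libraries of L854F and JmjC correlated at 0.103 to 0.172 for all 4 numbers, above the 0.1 required of every pair. Different numbers gave -0.266 to 0.149. Of these, only L854F replicate 3 with JmjC replicate 4 (0.149) reached that range, and the next highest was 0.0886. A pairing of those groups is therefore only weakly resolved. Their main fit had no block although the requirement was met, and the fit with the block is given beside it. Every channel gene was accounted for. Values in all libraries are given for called genes, the gene with the smallest adjusted p in each comparison and others chosen after their values were seen, and other lists are represented by their 3 called genes with the smallest adjusted p. The channel genes and lists were chosen with earlier results of these data known. Of the 34 positions, 33 were matched by gene ID and 1 (Ca-beta) by symbol to Ensembl release 115.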

Additional observations from a re-analysis of the deposited data

Results flagged for a closer look

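For 6 of 99 sets of 4 libraries, 1 library lay far from the other 3 by Dixon's 95% criterion, where chance gives about 1 in 20. In WT replicate 3, Ca-alpha1T was at 158.9 CPM against 195.4 to 201.9 CPM in the other WT libraries, Elk at 67.19 CPM against 84.32 to 86.16 CPM, Ih at 207.3 CPM against 232.9 to 237.1 CPM, and Task7 was the highest at 65.77 CPM against 58.91 to 59.9 CPM. In L854F replicate 4, qvr was at 474 CPM against 392.5 to 402.1 CPM. In JmjC replicate 4, SLO2 was at 98.49 CPM against 143.9 to 148.8 CPM.

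Effects of the mutants differed for 4 channel genes by the direct test of L854F against JmjC with edgeR, fitted without the replicate block. The log2 difference was 1.36 for Irk2 (edgeR adjusted p = 0.000247), 0.86 for Irk1 (edgeR adjusted p = 0.0111), -0.53 for NaCP60E (edgeR adjusted p = 0.000943) and 0.18 for Task7 (edgeR adjusted p = 0.0357).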

How the results depend on the processing

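With the replicate block, edgeR called 1 channel gene in L854F against WT (slo, adjusted p = 0.0313, with 5.65% of all genes called) in place of 0, 6 in JmjC against WT (Shab added, adjusted p = 0.0172, with 17.8% of all genes) in place of 5, and 9 in L854F against JmjC (22.1%) in place of 4. Same-numbered WT and L854F libraries correlated at 0.0114 to 0.133 and WT and JmjC at -0.0943 to 0.0952, so not every number exceeded 0.1 and the numbers were not taken to pair WT with the mutants, although libraries numbered 3 were the lowest for 16 of the 33 channel genes in all 3 groups. Leaving out single libraries gave 0 calls throughout for L854F against WT, where 3.34% to 4.63% of all genes were called. It gave 3 to 8 for JmjC against WT (12.3% to 18.2% of all genes). For L854F against JmjC it gave 3 to 9 (10.5% to 18.6% of all genes). In both of these comparisons the highest count and the highest share came without JmjC replicate 3. Leaving out replicate 3 of both groups, an alternative chosen after seeing the data, gave 0, 6 and 7. There 303 of 9131, 1391 of 9279 and 1585 of 9236 genes were called. What caused the shifts in these counts was not tested. Calls of NaCP60E, Irk1 and Irk2 were kept in all 17 alternatives of both comparisons, with log2 changes in JmjC of 0.46 to 0.55, -1.32 to -0.99 and -1.45 to -1.12. Those of unc79 (6 of 17) and Task7 (8 of 17 in each comparison) were lost in some, and no change of a called gene reversed in direction. The low counts of Ork1 and sand limit what could be seen for them.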
